A study of Mus musculus with 11 samples.

Results

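Monocarboxylate transporters and lactate dehydrogenase were followed through 8 genes, chosen by symbol from the 53465 genes counted in mPFC CRF1+ neurons of naïve mice and mice withdrawn from ethanol. The set was Slc16a1, Slc16a7, Slc16a11, Slc16a13, Slc5a6, Bsg, Ldha and Ldhb. Slc16a11 and Slc5a6 were put in the set because they were higher in the withdrawn samples, so their values are a description and carry no test. The other 6 genes were tested. All 8 genes passed the filter on low counts, as did 17093 genes in all.

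The study asked how withdrawal from chronic ethanol alters the medial prefrontal cortex (mPFC) neurons that express the receptor CRF1, which binds the stress peptide corticotropin releasing factor. The samples were 11 adult male CRF1:GFP mice, in which green fluorescent protein reports CRF1 expression, and each library held RNA from the sorted GFP+ mPFC cells of 1 mouse. The 5 withdrawn mice (treatment label ethanol) had inhaled ethanol vapor in repeated cycles, received ethanol and pyrazole (an alcohol dehydrogenase inhibitor) by injection, and then spent 5 to 8 days in forced abstinence. The 6 naïve mice (treatment label control) had received pyrazole and air. Both groups thus shared the reporter, the sort and pyrazole, and 160 pg of RNA entered each library. For 3 of the withdrawn mice, numbers 3, 4 and 5, the source name reads control while the title and the treatment read ethanol, and the series text counts 5 control and 6 ethanol mice. The log2 fold change of each of the 8 genes is therefore also given without these 3 mice. Group levels, shares and correlations are given over all mice only.

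Library totals ran from 7351567 to 22244869 gene counts, and 3 counts corresponded to 0.140 to 0.369 CPM (gene counts scaled to library size, after TMM scaling for library composition). Crhr1, the gene for CRF1, was present in every mouse. Its mean was 92.7 ± 21.5 CPM for the naïve group (SD, n = 6) and 89.3 ± 33.6 CPM for the withdrawn group (SD, n = 5). Summed CPM of 5 glutamatergic markers ran from 1809 to 4307 over all mice, against 28.5 to 923 for 6 GABAergic markers. Summed CPM of 10 fibroblast markers ran from 0.0677 to 79.7 in naïve mice and was 1383, 27.5, 701, 985 and 240.2 in withdrawn mice 1 to 5, so that 4 of 5 withdrawn mice lay above all naïve mice. No fibroblast marker was at 0 in every mouse. All 8 fibroblast markers that passed the filter had a higher fitted level in withdrawn mice, and 0 of them passed the call. Lum and Igf2 did not pass the filter. Their means were lower in withdrawn mice, at 1.36 CPM in naïve and 0.91 CPM in withdrawn mice for Lum, and 0.468 and 0.092 CPM for Igf2. Astrocyte markers summed to 80.0 to 292 CPM in naïve mice and to 705, 62.1, 508, 793 and 319 CPM in withdrawn mice 1 to 5. Of 7 tested astrocyte markers 3 were higher and 4 lower. The higher ones were Gja1 (means 15.3 CPM in naïve and 187 CPM in withdrawn mice), Gjb6 (9.01 and 186 CPM) and Fgfr3 (6.52 and 14.0 CPM). Aqp4, Aldh1l1, Slc1a3 and Aldoc were lower, as was the mean of Gfap, which did not pass the filter. Microglia markers summed to 8.81 to 26.2 CPM in naïve mice and to 41.3, 8.28, 37.8, 45.1 and 29.1 CPM in withdrawn mice, with 2 of 4 tested markers higher. For both, as for the fibroblast markers, withdrawn mice 1, 3, 4 and 5 lay above all naïve mice and mouse 2 did not. Endothelial markers summed to 3.18 to 798 CPM in naïve and 88.9 to 797 CPM in withdrawn mice, with 3 of 8 higher. In RNA of bulk sorted cells, fewer cells of a type and less RNA per cell cannot be told apart.

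Lactate crosses membranes through the proton-coupled carriers of the SLC16 family. Slc16a1 encodes MCT1, which in brain is found on endothelium and glia, and Slc16a7 encodes MCT2, a high-affinity carrier of neurons. Basigin, the product of Bsg, is the partner protein that brings MCT1 to the cell surface. Slc16a11 and Slc16a13 encode MCT11 and MCT13, less studied members of the same family. Slc5a6 encodes SMVT, the sodium-dependent multivitamin transporter for biotin, pantothenate and lipoate, which belongs to another solute carrier family. Lactate dehydrogenase interconverts pyruvate and lactate. Its tetramers are built from the M subunit, encoded by Ldha, and the H subunit, encoded by Ldhb, and a larger M share is classically tied to tissues that make lactate.

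In GRCm38, Slc16a1 lies at chr3:104638668-104658462 (+) and Slc16a7 at chr10:125219270-125389465 (-). Slc16a11 at chr11:70212752-70216417 (+) and Slc16a13 at chr11:70216789-70221064 (-) are neighbours that end 372 bases apart, tail to tail. Slc5a6 lies at chr5:31036036-31048924 (-), back to back with Atraid. Bsg lies at chr10:79704491-79711969 (+), Ldha at chr7:46841475-46855627 (+) and Ldhb at chr6:142490249-142507957 (-). Values below are sums over all exons of a gene.

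Start regions are shown for the 2 genes included for their higher level and for the 2 subunit genes whose ratio differed between the groups. Each window holds 250 bases before and 50 after a RefSeq transcript start (GRCm38.p6), read 5′ to 3′ on the strand of the gene. Capitals mark the GC box GGGCGG and the core ACGTG of the hypoxia response element, searched on both strands. The windows are chr11:70213660-70213959 (+) for Slc16a11, chr5:31048513-31048812 (-) for Slc5a6, chr7:46845554-46845853 (+) for Ldha and chr6:142507908-142508207 (-) for Ldhb.
Slc16a11: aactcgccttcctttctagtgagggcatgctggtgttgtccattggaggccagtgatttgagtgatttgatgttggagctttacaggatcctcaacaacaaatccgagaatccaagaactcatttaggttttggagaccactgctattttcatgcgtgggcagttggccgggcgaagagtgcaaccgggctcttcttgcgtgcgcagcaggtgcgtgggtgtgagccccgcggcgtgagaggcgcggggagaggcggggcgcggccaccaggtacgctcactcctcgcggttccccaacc
Slc5a6: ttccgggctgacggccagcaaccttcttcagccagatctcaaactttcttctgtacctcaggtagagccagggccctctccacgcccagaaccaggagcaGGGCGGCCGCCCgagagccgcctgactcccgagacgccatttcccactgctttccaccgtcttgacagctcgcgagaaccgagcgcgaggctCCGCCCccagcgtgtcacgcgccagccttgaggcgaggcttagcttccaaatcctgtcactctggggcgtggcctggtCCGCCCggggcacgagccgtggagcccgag
Ldha: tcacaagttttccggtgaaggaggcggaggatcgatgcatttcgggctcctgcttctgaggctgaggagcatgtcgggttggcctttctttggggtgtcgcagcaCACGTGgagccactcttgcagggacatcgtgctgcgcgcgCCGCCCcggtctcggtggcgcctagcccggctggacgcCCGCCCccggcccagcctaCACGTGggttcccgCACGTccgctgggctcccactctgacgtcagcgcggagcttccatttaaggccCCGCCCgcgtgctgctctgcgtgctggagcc
Ldhb: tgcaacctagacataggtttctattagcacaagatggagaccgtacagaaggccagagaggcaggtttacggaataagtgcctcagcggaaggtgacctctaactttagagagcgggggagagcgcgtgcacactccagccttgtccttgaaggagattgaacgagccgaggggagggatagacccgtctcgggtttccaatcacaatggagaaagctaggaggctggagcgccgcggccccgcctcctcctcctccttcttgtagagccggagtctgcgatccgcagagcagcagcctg
RefSeq windows were found for 5 of the 8 genes and not for Slc16a7, Slc16a13 and Bsg. The Ldha window held 5 matches to ACGTG and 3 to GGGCGG. Of these 5 matches, 4 came from 2 copies of the palindrome CACGTG, which reads the same on both strands. It also held 1 copy of TGACGTCA, the cAMP response element. The Ldhb window held neither ACGTG nor GGGCGG, and 1 copy of CCAAT. Slc5a6 held 4 matches to GGGCGG, 2 of them in 1 run, and none to ACGTG. Slc16a11 held neither and had 1 copy of CCAAT. Slc5a6 and Ldha each had a second window, not printed, with 6 matches to GGGCGG and 1 copy of CCAAT for Slc5a6 and none of the letters searched for Ldha. The window of Slc16a1 held 1 match to GGGCGG and 3 to ACGTG. Among 32851 windows of the same length, 35.7% held GGGCGG, 19.6% held ACGTG, 7.15% held CACGTG, 1.79% held TGACGTCA and 37.4% held CCAAT. A match is a description of the letters and was not tested as a binding site.

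The 3 genes of highest level per kilobase of exon were Ldhb, Bsg and Ldha, and the carriers were far lower. In naïve mice Ldhb stood at 455 ± 111, Bsg at 351 ± 109 and Ldha at 343 ± 77.4 CPM per kb (SD, n = 6), and their ranges overlapped. Among carriers, Slc16a11 followed at 12.3 ± 4.47, Slc16a1 at 6.98 ± 5.40 and Slc5a6 at 5.97 ± 1.72 CPM per kb, each overlapping the next. Slc16a7 at 2.40 ± 0.80 CPM per kb lay below all Slc5a6 values and overlapped Slc16a13 at 1.27 ± 0.65 CPM per kb. In withdrawn mice the highest 3 remained Ldhb at 321 ± 38.5, Ldha at 307 ± 48.6 and Bsg at 304 ± 66.6 CPM per kb (SD, n = 5), again with overlapping ranges. The order of the subunits depended on the length used. By the longest transcript, Ldha stood at 625 ± 141 and Ldhb at 548 ± 134 CPM per kb in naïve mice, and at 560.2 ± 88.7 and 387 ± 46.4 CPM per kb in withdrawn mice, where their ranges did not overlap. Per kilobase of all exons, the carrier order in withdrawn mice was Slc5a6 at 47.0 ± 30.9, Slc16a11 at 35.1 ± 10.2, Slc16a1 at 13.8 ± 8.64, Slc16a13 at 7.55 ± 6.22 and Slc16a7 at 2.17 ± 1.10 CPM per kb. Each of these neighbours overlapped the next.

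**Figure D1:**
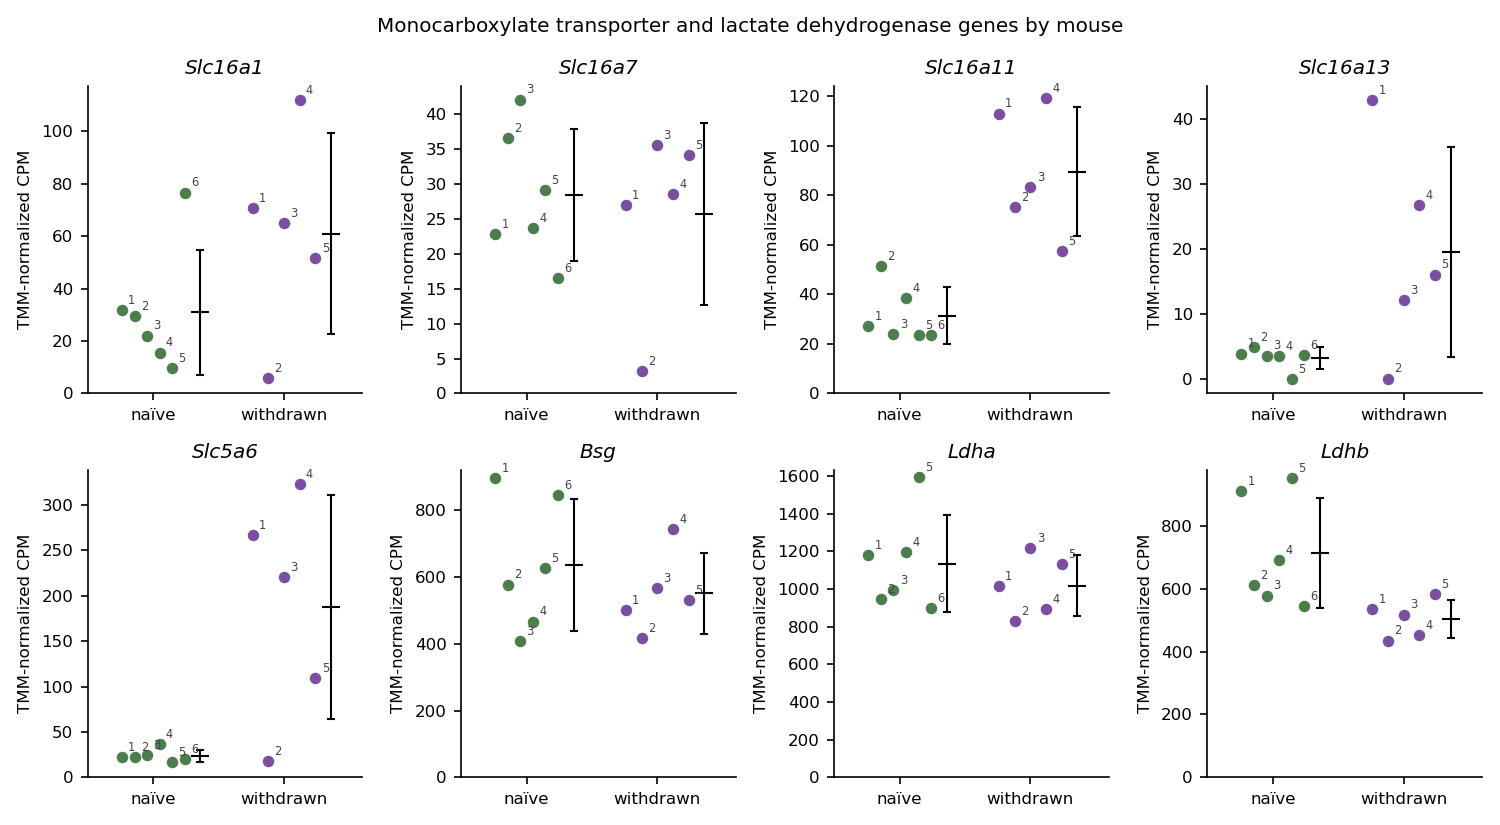
TMM-normalized CPM of the 8 genes in each mouse (numbered points), with the mean and SD as a black bar for 6 naïve (green) and 5 withdrawn (purple) mice and an axis from about 0 in each panel. Slc16a11 alone separates the groups, withdrawn mouse 2 sits with the naïve mice for Slc5a6 and Slc16a13, and the Ldhb means are 714 and 504 CPM.

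Slc16a1, the gene for MCT1, overlapped between the groups. It stood at 31.9, 29.5, 22.0, 15.6, 9.68 and 76.6 CPM in naïve mice 1 to 6. It stood at 70.6, 5.71, 64.9, 112 and 51.7 CPM in withdrawn mice 1 to 5. Withdrawn mouse 2 was the lowest of all and withdrawn mouse 4 the highest, and naïve mouse 6 exceeded 4 of the 5 withdrawn mice. The log2 fold change of withdrawn against naïve was 0.98 (SE 0.59), which did not pass edgeR's quasi-likelihood test (adjusted p = 0.805). It was 0.28 without the 3 mice of conflicting labels.

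Slc16a7, the gene for the neuronal carrier MCT2, was alike in level in most mice. Its naïve values were 22.8, 36.5, 42.1, 23.7, 29.1 and 16.5 CPM. Its withdrawn values were 27.0, 3.25, 35.6, 28.5 and 34.1 CPM. Only withdrawn mouse 2 lay outside the naïve range. The log2 fold change was -0.15 (SE 0.46, edgeR adjusted p = 0.973), turned to 0.13 without withdrawn mouse 2, and was -0.93 without the 3 mice of conflicting labels, when that mouse was 1 of 2. By exon length, Slc16a1 made up 68.2% ± 15.9 of the Slc16a1 plus Slc16a7 level in naïve mice and 84.9% ± 4.45 in withdrawn mice, with ranges of 47.1 to 92.5% and 80.2 to 91.3% that overlapped.

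Slc16a11, the gene for MCT11, was chosen for its higher level and had the only non-overlapping groups of the 8. Its naïve values were 27.3, 51.5, 23.8, 38.6, 23.4 and 23.7 CPM. Its withdrawn values were 113, 75.1, 83.2, 119 and 57.5 CPM. Every withdrawn mouse, number 2 included, lay above naïve mouse 2, the highest of its group. The mean was 2.86 times the naïve mean, and the fitted log2 fold change was 1.51 (SE 0.27). Without the 3 mice of conflicting labels it was 1.54. Over all 17093 tested genes, 0.690% had every withdrawn mouse above every naïve mouse. Since the gene was chosen on this contrast, nothing is read from that share.

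Slc16a13, the gene for MCT13 beside Slc16a11, was a low-count gene. In naïve mice it stood at 3.97, 4.94, 3.66, 3.61, 0 and 3.70 CPM, the 0 being naïve mouse 5. In withdrawn mice it stood at 43.0, 0.112, 12.2, 26.8 and 16.1 CPM, the lowest being 1 count in mouse 2. Hence 4 of 5 withdrawn mice lay above all naïve mice, with withdrawn mouse 1 giving 43.8% of the withdrawn sum. The log2 fold change was 2.56 (SE 1.01), with an unadjusted edgeR p of 0.0243 and an adjusted p of 0.563, so it did not pass the test. It was 2.68 without the 3 mice of conflicting labels. Its neighbour beyond, Bcl6b, stood at 2.26 ± 2.16 CPM in naïve and 2.70 ± 2.98 CPM in withdrawn mice.

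Slc5a6, the multivitamin transporter gene, was the other gene chosen for its higher level. Its naïve values were 22.3, 22.7, 24.7, 36.7, 16.7 and 19.8 CPM. Its withdrawn values were 267, 17.6, 221, 323 and 109 CPM. Withdrawn mice 1, 3, 4 and 5 lay above every naïve mouse, whereas mouse 2 lay among the naïve mice. The mean ratio was 7.87 and the fitted log2 fold change 2.98 (SE 0.51), or 2.55 without the 3 mice of conflicting labels. Atraid, whose start lies 612 bases from that of Slc5a6 on the other strand, shares 396 of the 3991 exonic bases of Slc5a6. Atraid itself stood at 108 ± 39.6 CPM in naïve and 98.4 ± 15.2 CPM in withdrawn mice. Its log2 fold change was -0.13 (edgeR adjusted p = 0.951). Of the 75-base stretches of Slc5a6 transcripts, 13.4% also occur in Atraid or the pseudogene Gm6157, and the source does not state the strand setting of the counting.

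Marker levels of several cell types moved with some of the carriers. Over the 11 mice, which share library and group differences, Pearson's r with the fibroblast marker score (mean log2 CPM of the list) was 0.89 for Slc5a6, 0.84 for Slc16a13, 0.80 for Slc16a11 and 0.69 for Slc16a1. With the astrocyte score it was 0.50, 0.78, 0.38 and 0.87 for the same genes, and with the endothelial score 0.18, 0.58, 0.14 and 0.66. Slc16a1 thus ran closer to the astrocyte than to the fibroblast score, and Slc5a6, Slc16a13 and Slc16a11 closer to the fibroblast score. For Slc16a7, r was 0.24 with the fibroblast and 0.35 with the astrocyte score. After centring each group at its mean, r with the fibroblast score was 0.78 for Slc5a6, 0.85 for Slc16a13, 0.58 for Slc16a11 and 0.69 for Slc16a1. With the astrocyte score it was then 0.59, 0.79, 0.50 and 0.87, and with the endothelial score 0.30, 0.65, 0.32 and 0.70. These are descriptions with no p. In withdrawn mouse 2 the fibroblast sum was 27.5 CPM, within the naïve range, the astrocyte and microglia sums were below their naïve ranges, and there Slc5a6 (17.6 CPM), Slc16a13 (0.112 CPM) and Slc16a1 (5.71 CPM) were within or below the naïve range, while Slc16a11 (75.1 CPM) was above it. With the fibroblast marker score as a covariate, the fitted log2 fold change was 1.03 for Slc16a11, 1.33 for Slc5a6, -0.42 for Slc16a13 and -0.80 for Slc16a1. This score is itself separated in part by group, and its part in the carrier levels was not tested beyond this fit. No such fit was made for the other marker scores.

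**Figure D2:**
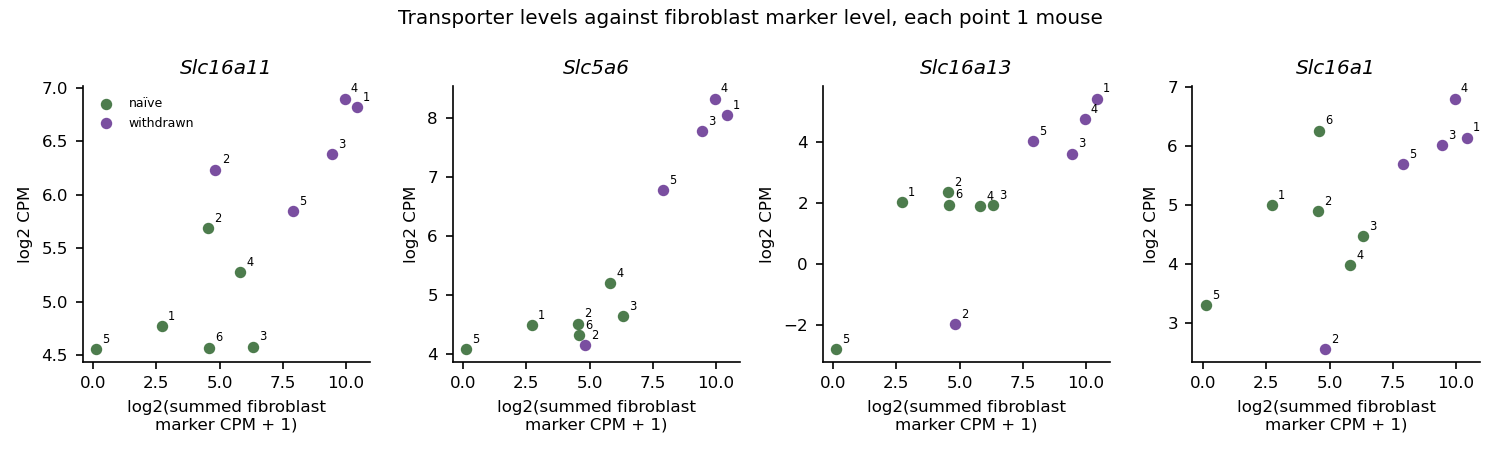
log2 CPM of 4 carrier genes (vertical axis) against the log2 of the summed CPM of 10 fibroblast markers plus 1 (horizontal axis), each numbered point being 1 naïve (green) or withdrawn (purple) mouse. The withdrawn mice 1, 3, 4 and 5 lie to the right of all naïve mice, and withdrawn mouse 2 lies among the naïve marker values yet above them for Slc16a11.

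Bsg, the gene for the MCT1 partner basigin, overlapped between the groups as Slc16a1 did, with a fold change of the other sign. Naïve mice 1 to 6 stood at 895, 576, 409, 466, 625 and 845 CPM. Withdrawn mice 1 to 5 stood at 499, 417, 566, 743 and 529 CPM, all inside the naïve range. The log2 fold change was -0.21 (SE 0.22, edgeR adjusted p = 0.910), and -0.53 without the 3 mice of conflicting labels.

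Ldha, the M subunit gene, had overlapping groups. Naïve levels were 1181, 946, 994, 1195, 1593 and 897 CPM. Withdrawn levels were 1016, 829, 1215, 892 and 1132 CPM. Naïve mouse 5 was the highest, and that library also had the fewest genes detected, 15585. The log2 fold change was -0.16 (SE 0.17, edgeR adjusted p = 0.911), and -0.35 without the 3 mice of conflicting labels.

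Ldhb, the H subunit gene, was lower in most withdrawn mice, though it did not pass the test. The naïve mice stood at 909, 611, 577, 692, 951 and 544 CPM. The withdrawn mice stood at 535, 435, 517, 452 and 582 CPM. In 4 of 5 withdrawn mice Ldhb lay below the lowest naïve mouse, and mouse 5 overlapped. The log2 fold change was -0.50 (SE 0.17), with an unadjusted edgeR p of 0.0122 and an adjusted p of 0.457. It kept its sign in every alternative run, from -0.61, without the 3 mice of conflicting labels, to -0.22, with the fibroblast marker score in the fit. Of the 75-base stretches of Ldhb, 12.6% also occur in the pseudogene Gm5514. For Ldha, 2.69% also occur in other genes, which are processed pseudogenes and Rnf103.

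The balance of the subunits separated the groups more clearly than either gene. Per kilobase of exon, Ldha made up 38.1, 42.3, 44.9, 45.1, 44.3 and 43.9% of Ldha plus Ldhb in naïve mice. It made up 47.4, 47.5, 52.7, 48.3 and 48.0% in withdrawn mice. Every withdrawn mouse, number 2 included, thus lay above every naïve mouse, with means of 43.1% ± 2.63 (SD, n = 6) and 48.8% ± 2.23 (SD, n = 5). The groups also did not overlap by the longest transcript or by raw counts, where the shares were 61.5% ± 2.60 and 66.7% ± 1.94. The share was chosen with results of these data known and carries no p. The ratio of Ldha to another tested gene was higher in every withdrawn than in every naïve mouse for 24 of 17092 genes, or 0.140%, Ldhb among them. Since the pair was chosen with these results known, nothing is read from that percentage.

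**Figure D3:**
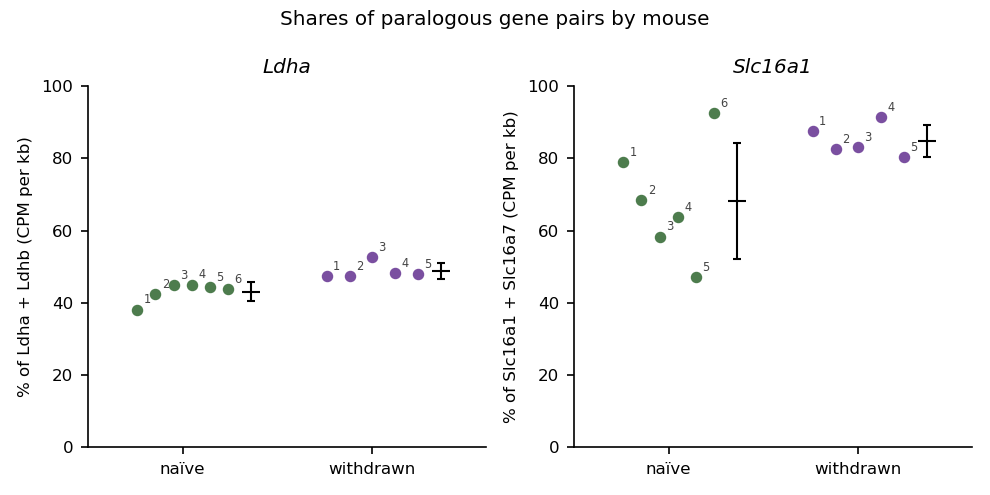
Share of Ldha in Ldha plus Ldhb (left) and of Slc16a1 in Slc16a1 plus Slc16a7 (right), in percent of CPM per kilobase of exon, for each numbered naïve (green) and withdrawn (purple) mouse, with mean and SD as black bars. The Ldha shares are 38.1 to 45.1% in naïve and 47.4 to 52.7% in withdrawn mice, and the Slc16a1 shares overlap.

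Across the 6 genes not chosen on their values, 0 passed the call (edgeR adjusted p not above 0.05, with an absolute log2 fold change over 0.6), against 1 of 17093 genes (0.00585%). At an unadjusted p under 0.05, 1 of the 6 was higher (Slc16a13) and 1 lower (Ldhb), beside 854 genes higher (5.00%) and 380 lower (2.22%) among all tested. None of the 6 had non-overlapping groups, where 118 genes (0.690%) did so upward and 44 (0.257%) downward. The median log2 fold change over all tested genes was 0.02.

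Lists of related genes, 69 in all, covered the surrounding pathways. Of these, 62 passed the filter, 0 passed the call by edgeR, 4 had an unadjusted p under 0.05 and a higher level, and 5 a lower one. Over all 17093 tested genes, 0.00585% passed the call, and at that unadjusted p 5.00% were higher and 2.22% lower. The other monocarboxylate carriers and their partner embigin held all 4 higher genes. Slc16a9, an SLC16 carrier linked to carnitine, had the smallest adjusted p of all lists. Its naïve values ran from 0 to 5.25 CPM (median 2.39), and its withdrawn values were 143, 2.24, 68.0, 55.8 and 27.5 CPM. Its log2 fold change was 4.62 (SE 0.95, edgeR adjusted p = 0.105). Emb, the gene for embigin, a partner of MCT2, ran from 27.1 to 48.8 CPM in naïve mice and stood at 341, 10.3, 203, 201 and 97.0 CPM in withdrawn mice. Its log2 fold change was 2.13 (SE 0.55, edgeR adjusted p = 0.225). In both genes withdrawn mouse 2 alone stayed within or below the naïve range. Without that mouse, when 1.06% of 18170 tested genes passed the call, both did so, with edgeR adjusted p-values of 0.00848 for Slc16a9 and 0.00325 for Emb. Over all alternatives the adjusted p ran from 9.07e-05 to 0.886 for Slc16a9 and from 0.00325 to 0.918 for Emb. Slc16a6, the gene for MCT7, had a log2 fold change of 2.36 (SE 0.93, edgeR adjusted p = 0.558), and 4 of 5 withdrawn mice exceeded the naïve ones. Slc16a10, an aromatic amino acid carrier, had a log2 fold change of 3.28 (SE 1.05, edgeR adjusted p = 0.374), from 0.398 to 3.96 CPM on average, with its highest value, 11.9 CPM, in withdrawn mouse 2. Without that mouse it was 2.27. Slc16a5, the gene for MCT6, had the lowest log2 fold change of that list, -1.03 (SE 1.44), at mean levels of 1.33 CPM in naïve and 0.665 CPM in withdrawn mice. The median of the 9 tested carriers was 0.59, against 0.02 over all genes. It was 0.012 with the fibroblast score in the fit, against -0.054 over all genes, and 0.33 without naïve mouse 5.

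Hcar1, the gene for the lactate receptor HCAR1, did not pass the filter. It had 0 counts in all 6 naïve mice and stood at 21.8, 0, 13.5, 31.7 and 2.19 CPM in withdrawn mice 1 to 5. The withdrawn mean, 13.8 CPM, was at least 66.4-fold higher than the floor of 0.209 CPM, which is 3 counts in an average naïve library. With no filter it passed the call by edgeR (adjusted p = 0.00462), as it did without withdrawn mouse 2 (0.00788) and by DESeq2 (0.000544). Hcar1 was named after its values were seen, and its counts came from withdrawn mice only. These adjusted p-values are therefore a description, and nothing is read from them as a test. The call was passed by 0.327% of all genes with no filter and by 1.66% of those to which DESeq2 gave an adjusted p. The 4 withdrawn mice with high Hcar1, Emb or Slc16a9 were those with fibroblast sums of 240.2 to 1383 CPM, astrocyte sums of 319 to 793 CPM and microglia sums of 29.1 to 45.1 CPM. The astrocyte sums in these mice came mostly from Gja1 and Gjb6, while most other astrocyte markers were lower on average in withdrawn mice. The part of the astrocyte and microglia marker levels was not tested. With the fibroblast score in the fit, the log2 fold change was 1.26 for Slc16a9, 1.06 for Emb and 0.91 for Slc16a6.

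**Figure D4:**
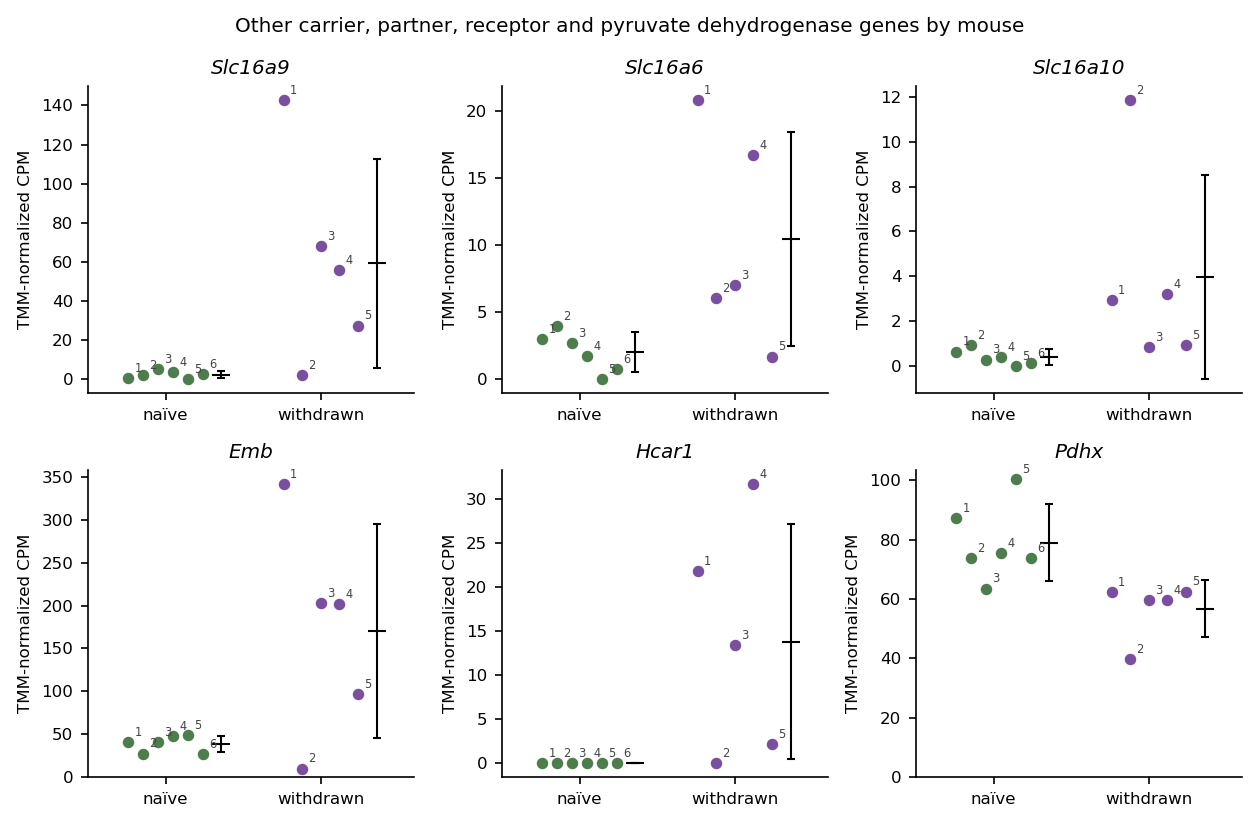
TMM-normalized CPM of 6 related genes in each numbered naïve (green) and withdrawn (purple) mouse, with mean and SD as black bars. Withdrawn mouse 2 lies with the naïve mice for Slc16a9 and Hcar1, lies below them for Emb, and is the highest of all mice for Slc16a10 at 11.9 CPM.

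Glycolysis genes were mostly a little lower in withdrawn mice, as Ldha and Ldhb were, and none passed the call. Of 18 genes, 16 had a log2 fold change below 0 and 2 above, with a median of -0.22 against 0.02 over all genes. Aldoc, aldolase C, one of the astrocyte markers used here, had -0.71 (SE 0.28, edgeR adjusted p = 0.573). Pgam1, phosphoglycerate mutase, had -0.34 (SE 0.15, edgeR adjusted p = 0.678). The extremes were Pfkfb3, a regulator of glycolytic flux, at -0.79 (SE 0.38) and the hexokinase Hk2 at 0.52 (SE 1.01). With the fibroblast score in the fit the split was 8 higher and 10 lower, and without the 3 mice of conflicting labels it was 0 and 18. Without naïve mouse 5 it was 3 and 15, and the median moved to -0.13.

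Pyruvate entry into mitochondria had 4 of 14 genes higher and 10 lower (median -0.22). With the fibroblast score in the fit the split turned to 8 higher and 6 lower (median 0.032). Pdhx, a structural subunit of the pyruvate dehydrogenase complex, was the only gene of the related lists with non-overlapping groups. Over all 17093 tested genes, 0.257% had every withdrawn mouse below every naïve mouse and 0.690% every withdrawn mouse above. Its naïve values were 87.1, 73.9, 63.5, 75.4, 100.4 and 73.7 CPM and its withdrawn values 62.3, 39.8, 59.6, 59.5 and 62.5 CPM. Its log2 fold change was -0.48 (SE 0.18, edgeR adjusted p = 0.510). Pdk4, a kinase that inhibits this complex, had 2.81 (SE 1.40, edgeR adjusted p = 0.728), at 19.9 CPM in withdrawn mouse 2 and a withdrawn median of 0.327 CPM. Without that mouse its log2 fold change was 0.71. Pcx, pyruvate carboxylase, had -0.50 (SE 0.38).

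Of the other lactate enzymes, Hagh, which releases D-lactate in the glyoxalase pathway, had -0.43 (SE 0.19, edgeR adjusted p = 0.649). Ldhd, D-lactate dehydrogenase, had -0.77 (SE 0.74), and Glo1, glyoxalase 1, -0.01 (SE 0.21), a value whose sign changed under DESeq2 size factors.

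Among genes that use the cargo of Slc5a6, none passed the call by edgeR. Of 8 biotin enzymes 5 were higher and 3 lower (median 0.20), with values from Acacb at -0.44 (SE 1.25) to Btd, biotinidase, at 0.59 (SE 0.67). With the fibroblast score in the fit 2 were higher and 6 lower (median -0.33). Of 10 genes of coenzyme A synthesis and lipoate 5 were higher and 5 lower (median -0.08), or 7 and 3 (median 0.10) with that score in the fit. Pank1, pantothenate kinase, had the lowest value, -0.79 (SE 0.36, edgeR adjusted p = 0.682), and Ppcs the highest, 0.28 (SE 0.42).

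**Figure D5:**
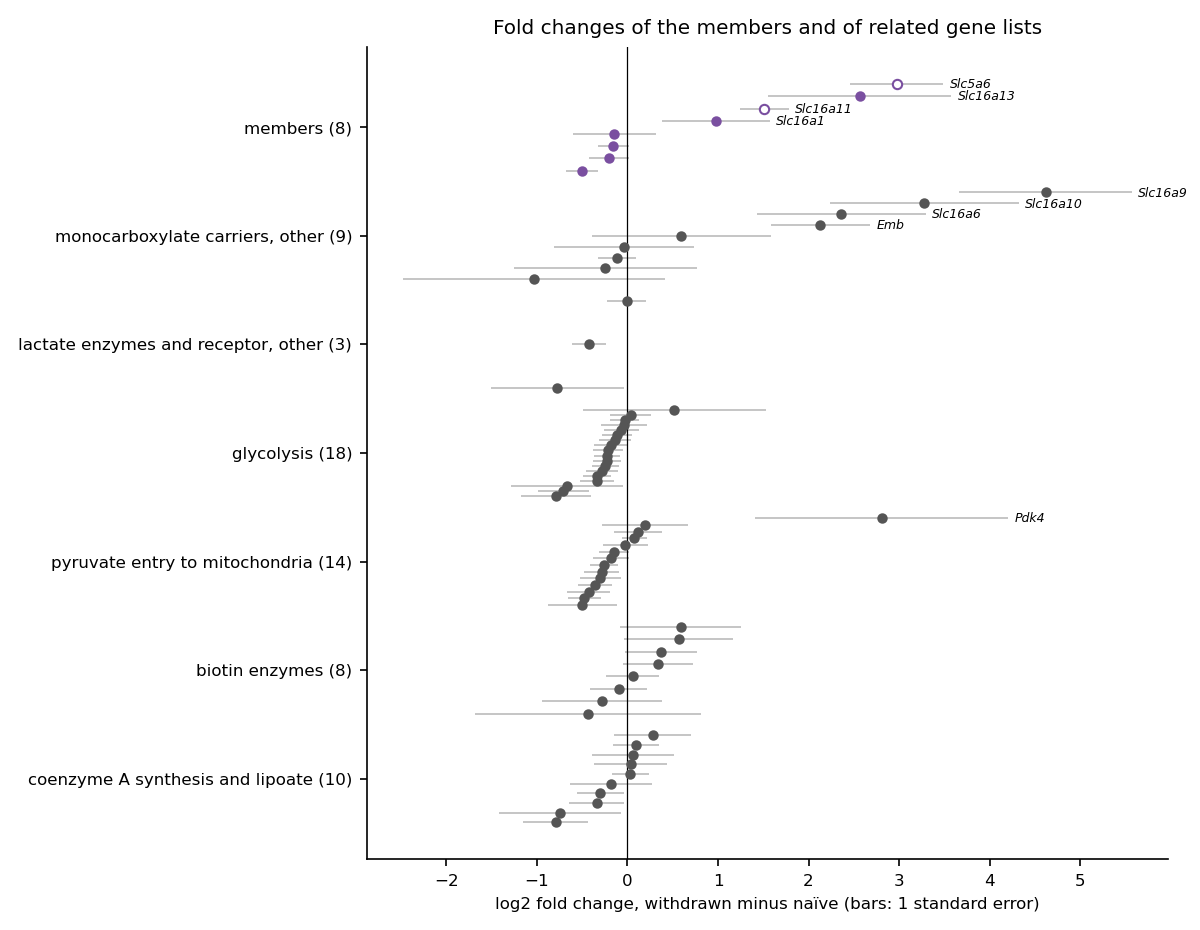
log2 fold change of withdrawn against naïve mice (horizontal axis, bars 1 SE) for the 8 genes (purple, open circles for the 2 chosen on their values) and for the tested genes of 6 related lists (grey), with the number of genes in brackets. The carriers spread from -1.03 to 4.62, while 16 of 18 glycolysis genes lie below 0.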

How the data were processed

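RNA of FACS-sorted mPFC CRF1+ cells was made into SMARTseq HT libraries. The deposited files hold raw counts per Ensembl gene, made by the authors with HTSeq from STAR alignments to GRCm38. The strand setting is not given in the sources used here. Reads tallied to no gene took 5.77 to 48.1% and were left out. Symbols came from GENCODE M21 (53360 of 53465 IDs matched). Counts were tested with edgeR 4.0.16 in R 4.3.3 (filterByExpr with minimum count 10 and minimum total 15, TMM, quasi-likelihood test, Benjamini-Hochberg adjustment over 17093 genes), on 6 naïve and 5 withdrawn mice without covariates. Genes were called at an adjusted p not above 0.05 with an absolute log2 fold change over 0.6. The study's own tool, DESeq2 (here 1.42.0), and limma 3.58.1 were alternatives. The scripts were tested on simulated data. Same-numbered mice are different animals, so the test had no block. In the lists, genes with an unadjusted p under 0.05, the highest and the lowest were named, and for each member the 3 genes of mean CPM of at least 5 most like it. The members and lists were chosen with earlier results of these data known. Hcar1 was named after its values were seen. A list of further metabolic genes is not reported here.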

Additional observations from a re-analysis of the deposited data

Results flagged for a closer look

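Values were set out by group in 20 sets (log2 CPM of the 8 genes and 2 shares). By Dixon's ratio, 1 mouse stood apart in 5 of these sets, where chance would give about 1 if the sets were independent. They are not, since all sets come from the same 11 mice and the shares from the same genes. No excess is read from this count. In withdrawn mouse 2, Slc16a1 stood at 2.55 log2 CPM (51 counts; next 5.70), Slc16a7 at 1.76 (29 counts; next 4.76) and Slc16a13 at -1.97 (1 count; next 3.62). In naïve mouse 5, Slc16a13 stood at -2.80 log2 CPM (0 counts; next 1.91). The Ldha share of Ldha plus Ldhb was 52.7% in withdrawn mouse 3, with the next at 48.3%. Withdrawn mouse 2 accounts for 3 of the 5. The cause was not tested.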

How the results depend on the processing

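Counts of called genes depended on the processing, and the cause was not tested. Against 1 gene called, there were 362 with DESeq2 (1.66% of genes), 137 with no low-count filter (0.327%), 30 with at least 10 counts in every mouse, 26 with the number of detected genes as a covariate, and 0 each with the fibroblast score, without the 3 mice of conflicting labels and at the stricter adjusted p of 0.01. Leaving out 1 mouse gave 0 to 193, the 193 (1.06%) without withdrawn mouse 2 and 6 without naïve mouse 2. Of the listed genes, 0 were called, but 4 with DESeq2 (Slc16a9, Slc16a10, Emb, Hcar1), 3 with no filter (Slc16a9, Emb, Hcar1) and 0 to 3 when leaving out 1 mouse (the same 3 genes without withdrawn mouse 2). Same-numbered mice of the groups shared only a number (correlations of deviations -0.20 to 0.18), and the replicate block gave 0 called genes; in it Acacb turned to 0.11 and Glo1 to 0.032. Signs also turned with the fibroblast score for Slc16a1 (-0.80), Slc16a13 (-0.42), Ldha (0.055), Hk2 (-1.26) and Glo1 (0.37); with limma voom for Slc16a7 (0.049), Ldha (0.034), Pdk4 (-0.70) and Glo1 (0.16); and without the 3 mice for Hk2 (-0.38) and Glo1 (0.033). Glo1 was 0.019 with DESeq2 and with its size factors, 0.039 with at least 10 counts and 0.078 with detected genes. Leaving out 1 mouse gave -0.31 to 0.13 for Slc16a7, -0.77 to 0.80 for Acacb, -0.11 to 0.088 for Glo1 -0.36 to 1.46 for Hk2 and 0.71 (without withdrawn mouse 2) to 3.11 for Pdk4. Bsg and Ldhb kept their sign in all 22 alternatives and Slc16a11 (1.03 to 1.70) and Slc5a6 (1.33 to 3.25) in theirs. Slc16a13 could not be fitted with at least 10 counts in every mouse.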

Other observations

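For each member the genes whose log2 CPM ran most alike over the 11 mice are given by Pearson's r among 11834 genes of mean CPM of at least 5, as a description with no p, since the mice share library and group differences. Slc16a11 ran with Csf1, a myeloid growth factor (r = 0.97, and 0.86 after centring each group at its mean), Tbx15 (0.97) and Pdgfrl (0.96). Slc5a6 ran with Ahcyl2 (r = 0.99, 0.98 after centring), Shisa3 (0.98) and Wls (0.98). Slc16a13 ran with Anxa2 (0.98), Tfpi (0.98) and Igfbp2 (0.97), and Slc16a1 with H2-K1 (0.97), Abcb1a (0.96) and Ahnak (0.96). Slc16a7 ran with Gpr173 (0.98), Pogz (0.97) and Lbhd1 (0.97). Bsg ran with Dbi (0.89), Chmp5 (0.88) and Esam (0.87), Ldha with Sccpdh (0.96), Mrpl28 (0.96) and Pepd (0.93), and Ldhb with Med28 (0.98), Atp5o (0.96) and Pfdn1 (0.95).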
